A study of Homo sapiens with 12 samples.

Results

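In A375 melanoma cells treated with interferon-gamma (IFNg), 90 of 65535 measured transcript clusters were at least 2-fold higher when silvestrol was added, both in total RNA and in RNA bound to polysomes. A transcript cluster gathers the probes that the platform places on 1 transcribed locus. The members were chosen on measured values: log2 intensities that average 7 or more across the 12 arrays, an IFNg+silves minus IFNg difference of at least 1 in each fraction, both silvestrol arrays above both IFNg arrays in each fraction, and a polysomal IFNg minus DMSO difference above -1. The floor of 7 left 7808 clusters, called bright below. The last condition, called the bound below, kept out 73 of the 163 clusters that met all others. The silvestrol differences in both fractions and the polysomal IFNg difference are therefore given as a description of the members, with no test.

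Silvestrol is a plant-derived compound that clamps the RNA helicase eIF4A, which unwinds the leader of mRNAs so that ribosomes can load. RNA that carries several ribosomes sediments as polysomes and is read as actively translated. Immediate-early genes, among them JUN and the EGR family, are switched on by a stimulus without new protein synthesis, and their mRNAs are normally short-lived. Inhibitors of protein synthesis are known in many cell types to prolong the presence of such mRNAs.

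A375 is an established human melanoma cell line. The 6 groups held 2 Affymetrix arrays each: total RNA and polysomal RNA of cells given DMSO for 2 h, of cells given IFNg for 24 h, and of cells given IFNg for 24 h with silvestrol for 2 h. Silvestrol was not given alone in any group, a vehicle for the IFNg groups is not named, and DMSO and IFNg differ in hours. Levels are log2 of the deposited intensities and were not compared between genes. Replicate arrays correlated across all clusters with r from 0.973 to 0.981, and mean intensity was lowest in polysomal RNA with IFNg, at 1237 and 1347 against 1469 to 1720 in the other arrays. In bright clusters the median silvestrol difference was 0.03 in total and 0.24 in polysomal RNA, so a polysomal difference is to be read from 0.24. When each array was centred on the bright clusters, 79 clusters met the rule and 65 of the 90 were among them. Of 17 marker genes for the cell type, 5 were measured: MITF, the melanocyte lineage factor, lay between 12.19 and 14.50, while the pigment cell genes MLANA and TYRP1 averaged 5.89 and 5.35, and the leukocyte gene PTPRC and epithelial gene EPCAM 4.77 and 3.91, all below the floor. Fewer cells and less RNA per cell cannot be told apart in these bulk samples.

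A single gene symbol was paired with 75 of the 90 members, several symbols with 5, and none with 10. Of the named members RefSeq listed 65 as protein-coding genes and 5 as small nuclear RNA genes, and gave 5 no type. The clusters named U1, counted below with small nuclear RNA, are among those with no type. The protein-coding members had a median gene span of 23.4 kb against 39.7 kb for 4048 bright protein-coding clusters, and 33.8% spanned under 10 kb against 16.1%. Among the 12 members with the largest smaller change, 11 of which are named genes, the median was 5.89 kb and 72.7% spanned under 10 kb. The members lay on chromosomes 1 to 9, 28 of them on chromosome 1 (31.1%, against 22.3% of bright clusters) and 14 on chromosome 6 (15.6% against 12.1%), and 2 lay within 10 table rows of another member. Chromosome 9 is covered only in part and later chromosomes were not analysed here.

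The promoters of 5 members are shown because they carry the binding motifs named for the members' best-known regulators: the CArG box bound by serum response factor, the cAMP response element (CRE), the NF-kB motif and the TATA box. Each is the 250 bases before the start of the gene from RefSeq, build GRCh38.p14, written 5′ to 3′ on the gene's own strand, with the motif in capitals. EGR1 (chr5:138465229-138465478, plus strand) holds CArG boxes (CCATATTAGG and CCATATATGG) that begin 105 and 83 bases before the start. SKIL (chr3:170357465-170357714, plus strand) and CCNL1 (chr3:157160148-157160397, minus strand) hold a CRE (TGACGTCA) that begins 54 and 86 bases before the start. CCN2 (chr6:131951373-131951622, minus strand) holds a match to the NF-kB motif (GGAATGTCCC as printed) and then a TATA box (TATAAA) close to the start. The NF-kB match of CCN2 lies on the opposite strand, so the printed letters do not spell the motif in its usual direction. IRF1 (chr5:132490774-132491023, minus strand) holds an NF-kB motif (GGGGAATCCC) that begins 50 bases before the start.
EGR1: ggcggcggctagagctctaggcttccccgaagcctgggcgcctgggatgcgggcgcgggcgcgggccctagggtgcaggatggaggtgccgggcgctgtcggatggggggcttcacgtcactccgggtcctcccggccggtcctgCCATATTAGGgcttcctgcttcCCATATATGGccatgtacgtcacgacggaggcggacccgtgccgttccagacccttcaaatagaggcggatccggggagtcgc
SKIL: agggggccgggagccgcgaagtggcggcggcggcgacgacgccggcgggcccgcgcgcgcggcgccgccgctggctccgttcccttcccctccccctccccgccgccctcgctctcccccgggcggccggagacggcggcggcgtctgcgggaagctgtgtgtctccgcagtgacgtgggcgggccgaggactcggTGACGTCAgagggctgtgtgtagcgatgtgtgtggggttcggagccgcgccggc
CCNL1: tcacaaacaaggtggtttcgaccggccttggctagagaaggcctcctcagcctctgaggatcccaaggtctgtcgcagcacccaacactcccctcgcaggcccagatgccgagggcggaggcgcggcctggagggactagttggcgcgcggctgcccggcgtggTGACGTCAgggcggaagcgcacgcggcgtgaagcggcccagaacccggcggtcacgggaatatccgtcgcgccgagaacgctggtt
CCN2: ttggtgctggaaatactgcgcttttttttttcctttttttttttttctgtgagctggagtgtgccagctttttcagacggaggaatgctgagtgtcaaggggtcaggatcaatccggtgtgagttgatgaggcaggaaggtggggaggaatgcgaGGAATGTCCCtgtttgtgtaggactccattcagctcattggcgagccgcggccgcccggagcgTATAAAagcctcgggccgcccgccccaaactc
IRF1: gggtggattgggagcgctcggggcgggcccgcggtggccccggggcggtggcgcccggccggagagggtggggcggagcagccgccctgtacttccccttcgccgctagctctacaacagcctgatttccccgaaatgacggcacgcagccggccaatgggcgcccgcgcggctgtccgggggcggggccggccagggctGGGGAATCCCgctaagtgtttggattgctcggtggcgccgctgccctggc

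The RefSeq promoter set used here held a promoter for 50 of the 70 members that were paired with 1 gene ID, and 35116 promoters in all. Only 4 of the 10 immediate-early members had a promoter in it. Leading members such as JUN, NR4A2 and ATF3 had none and were not searched. Both strands were searched. The CRE, TGACGTCA, was in 3 of the 50 (6% against 1.65% of all promoters: CCNL1, H4C8 and SKIL), and the CArG box in 2 (4% against 1.16%: EGR1 and PDGFA). The TATA box, TATAAA, was in 9 (18% against 10.7%) and the NF-kB motif in 4 (8% against 5.21%). The AP-1 motif, TGACTCA, was in 3 (6% against 4.203%) and the interferon-stimulated response element core, TTTCNNTTTC, in 1 (2% against 3.02%). The comparison set was not limited to genes with bright clusters, 1 promoter was kept per member gene only, and the member counts are small. These matches describe letters in these windows and are not binding sites.

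The members' silvestrol differences ranged up to 4.85 in total RNA, with a median of 1.47 and quartiles of 1.23 and 2.02. In polysomal RNA they ranged up to 5.12, with a median of 1.76 and quartiles of 1.29 and 2.48. The choice itself set these values. Of the bright clusters, 3.43% met the silvestrol condition in total RNA and 16.8% in polysomal RNA. At the edge of the size condition MAP3K1, a kinase of the MAP kinase cascades, at 1.502 in total and 1.0002 in polysomal RNA, lay just inside. REL, an NF-kB subunit at 0.9996 and 1.13, and SPRY4, an inhibitor of growth factor signalling at 0.9995 and 1.76, lay just outside because their total difference was under 1. At the edge of the bound, LYST at -0.9986 and CREB1 at -0.99 were inside and the histone gene H4C6 at -1.05 was outside. At the floor RNVU1-8, with a mean of 7.06, was inside and ZNF697, with 6.94, outside.

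**Figure D1:**
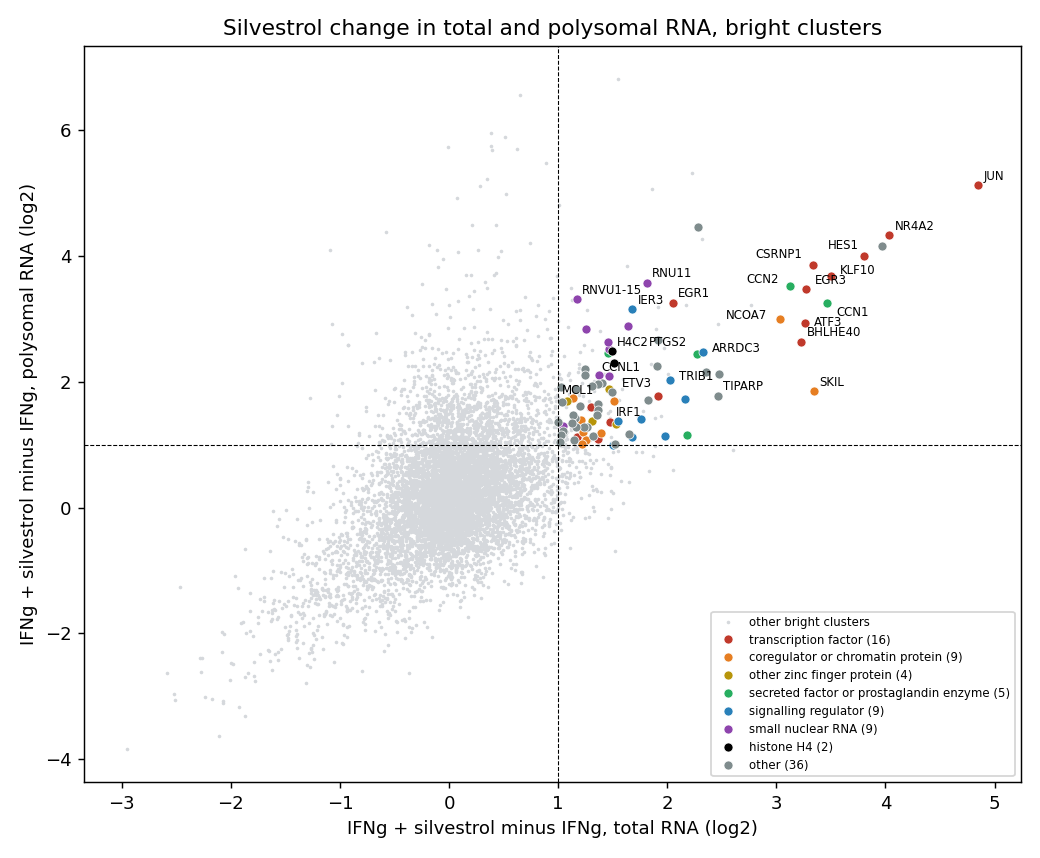
Silvestrol difference (IFNg+silves minus IFNg, log2) in total RNA on the horizontal axis and polysomal RNA on the vertical axis for 7808 bright clusters, with the 90 members coloured by role and dashed lines at 1. JUN lies farthest out at 4.85 and 5.12, and the small nuclear RNAs (purple) lie higher on the vertical than on the horizontal axis.

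The 16 sequence-specific transcription factors had the largest differences of any role, with medians of 2.64 in total and 2.79 in polysomal RNA. JUN encodes a subunit of the AP-1 factor. In total RNA it was at 7.98 and 5.97 with DMSO, 8.82 and 7.26 with IFNg, and 13.37 and 12.42 with IFNg and silvestrol. In polysomal RNA it was at 8.25 and 7.51, 8.58 and 7.35, and 13.81 and 12.37 in the same order. The DMSO and IFNg arrays overlapped in both fractions and the silvestrol arrays stood above all of them. The silvestrol difference was 4.85 in total RNA (28.8-fold, SE 0.71) and 5.12 in polysomal RNA (34.8-fold, SE 0.71). Replicate 1 read higher than replicate 2 with silvestrol in both fractions.

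NR4A2, an orphan nuclear receptor, was at 7.27 and 7.54 with DMSO, 7.64 and 7.89 with IFNg, and 12.03 and 11.58 with added silvestrol in total RNA. Its polysomal arrays read 6.45 and 7.36, 6.91 and 5.58, and 10.80 and 10.34. Both silvestrol arrays were far above the other 4 of their fraction, by 4.04 over IFNg in total RNA (16.4-fold, SE 0.41) and 4.33 in polysomal RNA (20.1-fold). HES1, a repressor downstream of Notch, was at 11.90 and 11.94, 12.56 and 12.25, and 16.54 and 15.86 in total RNA. Its polysomal arrays were at 12.05 and 12.52, 12.41 and 11.88, and 16.37 and 15.92. The differences of HES1 were 3.80 (13.9-fold, SE 0.31) and 3.996 (15.96-fold), close to each other. KLF10, a zinc finger factor inducible by TGF-beta, read 11.75 and 12.38, 13.12 and 12.34, and 16.30 and 16.16 in total RNA and 11.64 and 12.66, 12.77 and 12.12, and 16.18 and 16.07 in polysomal RNA. Its IFNg arrays did not clear its DMSO arrays in either fraction, whereas silvestrol added 3.50 (11.3-fold, SE 0.38) and 3.68 (12.8-fold).

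The early growth response factors EGR1 and EGR3 are zinc finger proteins encoded by immediate-early genes. EGR1 was at 14.97 and 13.74 with DMSO, 16.34 and 16.61 with IFNg, and 18.52 and 18.52 with silvestrol in total RNA. In polysomal RNA it was at 14.48 and 14.08, 15.65 and 14.34, and 18.29 and 18.21. In total RNA EGR1 therefore made a step at IFNg (2.12) and another at silvestrol (2.05, 4.14-fold, SE 0.43), while in polysomal RNA the IFNg and DMSO arrays overlapped and the silvestrol step was 3.26 (9.58-fold). EGR3 was at 10.24 and 9.97, 11.12 and 10.66, and 14.52 and 13.80 in total RNA, and at 9.66 and 10.67, 10.22 and 8.80, and 13.52 and 12.45 in polysomal RNA. Its silvestrol differences were 3.27 (9.68-fold, SE 0.49) and 3.47 (11.1-fold).

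ATF3, a stress-inducible factor of the CREB family, read 7.64 and 5.49, 7.06 and 7.40, and 10.31 and 10.67 in total RNA and 7.59 and 6.68, 7.53 and 7.24, and 10.41 and 10.24 in polysomal RNA. The DMSO arrays of total RNA were far apart, and both silvestrol arrays of each fraction were above every other array, by 3.26 (SE 0.53) and 2.94 over IFNg. CSRNP1, a nuclear protein induced by AXIN1, was 3.34 and 3.85 higher (SE 0.41). BHLHE40, a helix-loop-helix repressor tied to the circadian clock, was 3.23 and 2.64 higher (SE 0.25), and ETV3, a repressor of the ETS family, 1.92 and 1.78.

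IRF1, the transcription factor that carries the early response to IFNg, differed from the other factors in its IFNg step. In total RNA it was at 5.40 and 4.76 with DMSO, 14.61 and 14.30 with IFNg, and 15.74 and 16.13 with silvestrol. In polysomal RNA it was at 6.04 and 5.79, 15.15 and 14.93, and 16.47 and 16.35. The 3 treatments did not overlap in either fraction. The IFNg step was 9.38 in total and 9.13 in polysomal RNA, and the silvestrol difference on top of it was 1.48 (2.79-fold, SE 0.28) and 1.37 (2.58-fold). Factors at the low end, named by role after their values were seen, included PRDM1, a repressor of B cell genes known as BLIMP1, at 1.30 and 1.60. CREB1, which binds the CRE, was at 1.36 and 1.09, and REST, a repressor of neuronal genes, at 1.17 and 1.13.

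**Figure D2:**
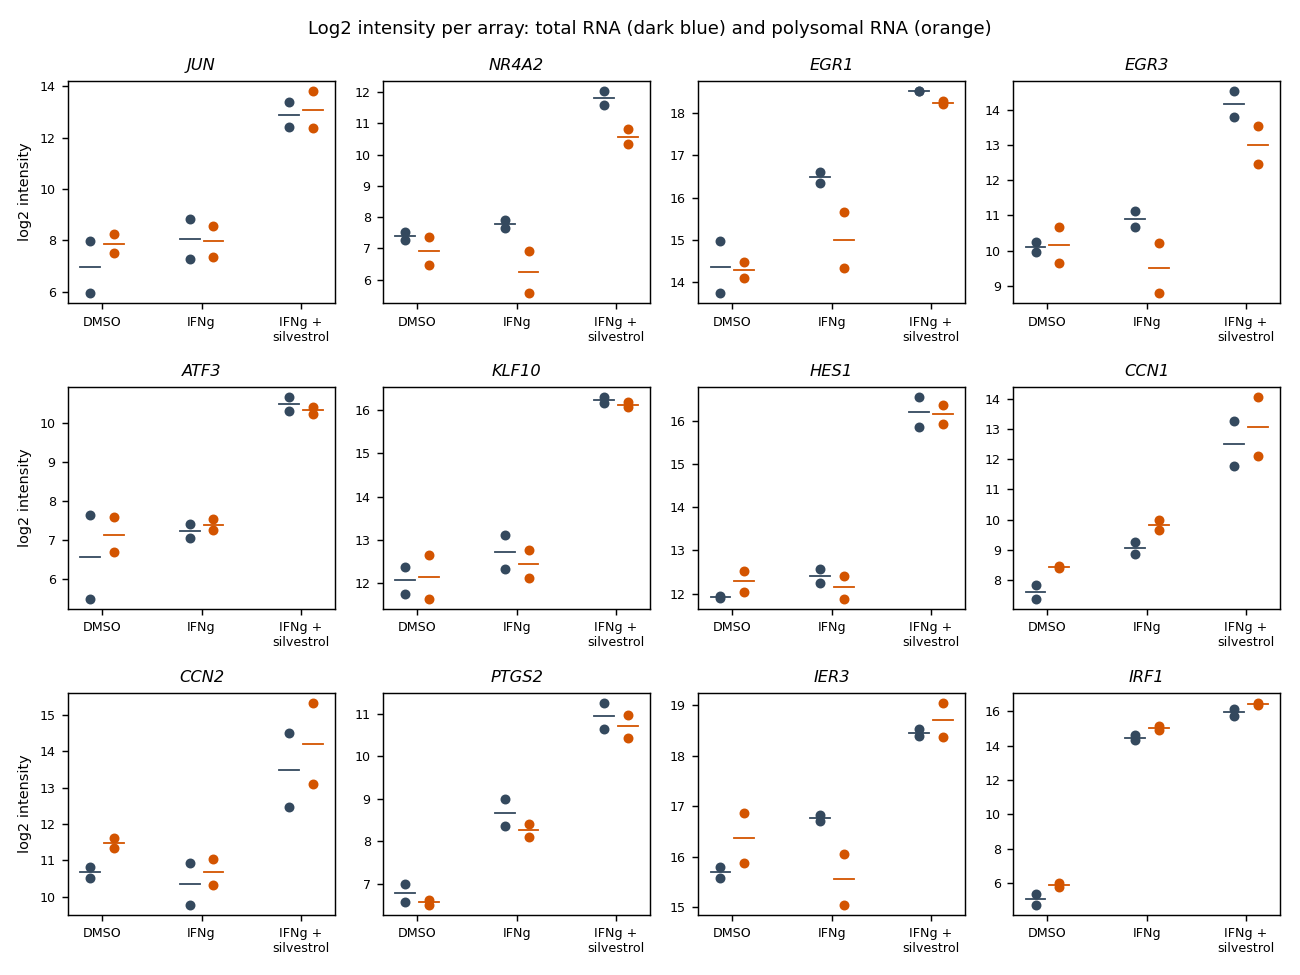
Log2 intensity (vertical axis, a separate scale for each gene) of 12 members in each array by treatment, with total RNA in dark blue and polysomal RNA in orange, where points are arrays and lines are means of 2 arrays. The silvestrol arrays lie above the IFNg arrays in every panel, and IRF1 has its larger step between DMSO and IFNg.

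The 9 transcriptional coregulators and chromatin proteins had medians of 1.26 and 1.39. SKIL, which restrains SMAD factors of the TGF-beta pathway, was at 9.31 and 9.67, 10.31 and 10.33, and 13.67 and 13.67 in total RNA. Its polysomal arrays read 8.61 and 9.72, 10.06 and 9.26, and 11.67 and 11.35. The silvestrol difference of SKIL was 3.35 in total RNA (10.2-fold, SE 0.36) and 1.85 in polysomal RNA (3.60-fold). Its silvestrol difference in polysomal RNA minus that in total RNA, -1.498, was the lowest of the 90. NCOA7, a nuclear receptor coactivator with an interferon-inducible form, was at 7.94 and 7.97, 10.66 and 10.59, and 13.62 and 13.70 in total RNA, and at 7.501 and 7.70, 9.57 and 8.82, and 12.23 and 12.15 in polysomal RNA. It made a step of 2.67 at IFNg in total RNA and steps of 3.03 (SE 0.27) and 2.9997 at silvestrol. NAB1, a corepressor that binds EGR proteins, was 1.51 and 1.70 higher, NFKBIZ, a nuclear regulator of NF-kB, 1.39 and 1.19, and 4 other zinc finger proteins had medians of 1.39 and 1.53.

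In the group of 5 secreted factors and prostaglandin enzymes, the matricellular proteins CCN1 and CCN2, known targets of YAP and serum response factor, were highest. CCN1 was at 7.83 and 7.38, 9.25 and 8.85, and 13.25 and 11.78 in total RNA and at 8.45 and 8.40, 9.999 and 9.66, and 14.06 and 12.09 in polysomal RNA. Its 3 treatments did not overlap in either fraction, with an IFNg step of 1.45 in total RNA and silvestrol differences of 3.46 (SE 0.55) and 3.25. CCN2 was at 10.53 and 10.82, 10.94 and 9.79, and 14.51 and 12.47 in total RNA and at 11.34 and 11.62, 11.04 and 10.33, and 15.32 and 13.09 in polysomal RNA. The silvestrol arrays of replicate 1 were about 2 log2 units above those of replicate 2 in both fractions, which the SE of 0.70 beside differences of 3.13 and 3.52 reflects. PTGS2, the inducible cyclooxygenase, was at 6.58 and 7.003, 8.99 and 8.36, and 11.26 and 10.64 in total RNA and at 6.504 and 6.62, 8.41 and 8.11, and 10.99 and 10.43 in polysomal RNA. It was higher at each step, by 1.88 with IFNg in total RNA and by 2.28 (SE 0.32) and 2.45 with silvestrol. PDGFA, a growth factor chain, was 1.46 and 2.45 higher with silvestrol, and INHBA, a chain of activin, 2.18 and 1.15.

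The 9 signalling regulators, which include kinases and inhibitors of kinase or cytokine pathways, had medians of 1.76 and 1.40. IER3, an immediate-early regulator of survival and NF-kB signalling, was at 15.59 and 15.81, 16.84 and 16.71, and 18.52 and 18.38 in total RNA. In polysomal RNA it was at 15.89 and 16.87, 16.05 and 15.05, and 19.04 and 18.38. Its silvestrol difference was 1.68 (SE 0.38) in total and 3.16 in polysomal RNA, and its polysomal DMSO and IFNg arrays overlapped. ARRDC3, an arrestin-like adaptor, was 2.33 and 2.47 higher, TRIB1, a pseudokinase that directs substrates to COP1, 2.03 and 2.03 (SE 0.34), and ABL2, a tyrosine kinase, 2.17 and 1.72. The MAP kinase phosphatase DUSP10 was at 1.76 and 1.40, the EGF receptor inhibitor ERRFI1 at 1.68 and 1.12, and SOCS5, a suppressor of cytokine signalling, at 1.98 and 1.14. In the remaining named members, MCL1, a short-lived anti-apoptotic protein, was at 13.56 and 14.07, 15.99 and 16.05, and 17.37 and 17.47 in total RNA and at 14.28 and 14.61, 15.47 and 15.12, and 17.17 and 17.39 in polysomal RNA. Its treatments did not overlap in either fraction, and its silvestrol differences were 1.40 (SE 0.27) and 1.98. CCNL1, a cyclin linked to splicing, was 1.91 and 2.26 higher and TIPARP, an ADP-ribosyltransferase, 2.47 and 1.78.

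The other large group was small nuclear RNA, the RNA of the spliceosome, with 9 members: 7 of the U1 family, RNU11 of the minor spliceosome and 1 U6 copy, RNU6-242P. Small nuclear RNA does not encode protein, so its level in the polysomal fraction is not read here as translation. What placed it in that fraction was not tested. RNU11 was at 9.81 and 8.98, 10.08 and 9.52, and 11.95 and 11.27 in total RNA and at 8.06 and 8.90, 8.23 and 8.30, and 12.38 and 11.30 in polysomal RNA. It was 1.81 higher (SE 0.43) in total and 3.58 higher in polysomal RNA. The U1 members were 1.17 to 1.64 higher in total and 2.09 to 3.32 higher in polysomal RNA. RNVU1-15 was at 13.28 and 12.51, 13.34 and 12.95, and 14.87 and 13.76 in total RNA and at 12.21 and 11.82, 11.50 and 11.79, and 14.98 and 14.94 in polysomal RNA. Its total DMSO and IFNg arrays overlapped. U1 copies are nearly identical, so the 7 clusters may read the same transcripts and are not separate observations. Of the 9 small nuclear RNA members, only RNU11 met the rule under each of 4 normalizations, with a pseudocount and without any 1 of the 12 arrays, and 0 of the 7 U1 members did.

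The table held 89 U1 clusters, 40 of them bright. Over the 40 the silvestrol difference was above 0 in 38 in total RNA (median 0.38) and in 40 in polysomal RNA (median 1.63). Their median polysomal minus total difference was -0.96 with DMSO, -1.26 with IFNg and -0.06 with silvestrol. In the 7 members it was -1.30, -1.43 and -0.17. The 59 bright U6 clusters had a silvestrol median of -0.08 in total and 1.60 in polysomal RNA, so most did not share the total RNA difference of RNU6-242P.

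Of the replication-dependent histone genes, whose mRNAs lack a poly(A) tail, H4C2 and H4C8 were members. H4C2 was at 14.54 and 11.99, 13.64 and 13.14, and 14.61 and 15.15 in total RNA and at 14.91 and 14.85, 13.59 and 14.79, and 16.59 and 16.76 in polysomal RNA. The total silvestrol arrays cleared both DMSO arrays by little, and the DMSO arrays were far apart. H4C8 was at 17.93 and 16.21, 16.55 and 16.13, and 17.31 and 18.40 in total RNA and at 16.68 and 16.37, 15.01 and 18.75, and 19.08 and 19.28 in polysomal RNA. Its polysomal IFNg arrays lay on either side of the DMSO arrays, and its SE was 0.88 beside differences of 1.51 and 2.30. The 10 bright H4 clusters had medians of 0.78 and 2.07, and 39 bright clusters of H1, H2A, H2B and H3, none of them a member, 0.65 and 2.59. The bright H4 clusters ranged from 0.64 to 2.96 in polysomal RNA. H4 genes encode the same protein, and how far a cluster reads 1 copy alone was not tested. Neither H4 member met the rule under every normalization and without any 1 array.

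Several gene lists place the members beside the rest of their pathways. Members numbered 90 of all 7808 bright clusters, which is the base for the member count of each list. The choice set these member counts, so they are a description. The choice of members used the silvestrol difference, so calls are counted only over list clusters that are not members, and leaving the members out also lowers these counts. The calls come from limma across all 65535 clusters at an adjusted p under 0.05, and the lists were drawn up with earlier results known. Silvestrol against IFNg was called higher in 0.0412% of all clusters and lower in 0.0153% in total RNA, and in 1.09% and 0.301% in polysomal RNA. Most list clusters are bright, and the share of calls among bright clusters was not counted. Of bright clusters, 16.8% met the silvestrol condition of the rule in polysomal RNA, so these shares of all clusters are a low base for the lists. Over the lists below, 0 clusters that are not members were called higher in total RNA. At an unadjusted p under 0.05, those higher numbered 10 immediate-early, 3 NF-kB, 4 histone, 3 stress response and 1 IFNg response cluster. The share of all clusters at that unadjusted cutoff was not counted. Unadjusted counts of the lists, here and below, therefore have no base rate beside them and are a description.

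Of 25 clusters of 24 measured immediate-early genes, 10 were members, against 90 of 7808 bright clusters. The other 15 had medians of 0.9995 in total and 1.34 in polysomal RNA, and 5 were called higher in polysomal RNA: ID3, ID2, RHOB, DUSP1 and SPRY4. The bound alone kept out 6 of the 15: ID3 and ID2, inhibitors of helix-loop-helix factors, RHOB, a GTPase, DUSP1, a MAP kinase phosphatase, MYC and GADD45A. ID3 differed by 2.23 in total and 5.33 in polysomal RNA, RHOB by 2.77 and 3.22, and MYC by 1.94 and 1.46, and MYC had a polysomal IFNg minus DMSO difference of -2.59. The other 9 had a silvestrol difference under 1 in at least 1 fraction.

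Of 14 histone clusters that were not members, 9 were called higher in polysomal RNA, with list medians of 0.72 in total and 2.68 in polysomal RNA. Of 14 NF-kB target clusters that were not members, 2 were called higher in polysomal RNA: TNFAIP3, an inhibitor of NF-kB signalling, at 1.97 in total and 2.53 in polysomal RNA, and NFKBIE, a cytoplasmic NF-kB inhibitor, at 1.58 and 1.88. Their medians were 0.30 and 0.23. Of 27 IFNg response clusters IRF1 alone was a member, and the other 26 had 0 calls in limma in either fraction, medians of -0.06 and 0.27 and, in polysomal RNA at an unadjusted p under 0.05, 5 higher and 3 lower. Of 14 clusters for ubiquitin, splicing and other short-lived regulators, 3 were members (ARRDC3, CCNL1 and MCL1). Among the other 11, in polysomal RNA, CCNL2, a paralogue of CCNL1, was called higher (1.83) and TRA2B, a splicing factor, lower (-1.91).

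The translation, stress response and mRNA decay lists held 0 members. Of 18 translation clusters, 5 were called higher in polysomal RNA. Among 11 stress response clusters VLDLR, a lipoprotein receptor, was called lower in both fractions (-2.26 and -2.40) and CDKN1A, the cell cycle inhibitor p21, higher in polysomal RNA (3.19). Of 7 mRNA decay clusters 0 were called in limma in either fraction, and in polysomal RNA 3 were higher and 1 lower at an unadjusted p under 0.05.

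To measure silvestrol in arrays that did not choose the clusters, the size condition and the bound were applied to the arrays of 1 replicate number and the difference was read in the other. Chosen on number 1, 114 clusters had a median difference of 1.23 in total and 1.64 in polysomal RNA in number 2, against 0.01 and 0.21 for bright clusters. The difference was above 0 in 108 of 114 in total and 112 in polysomal RNA, and at least 1 in both fractions in 63 (55.3%, against 2.96% of bright clusters). Chosen on number 2, 104 clusters had medians of 1.16 and 1.68 in number 1, against 0.05 and 0.25. The difference was above 0 in 93 in total and 104 in polysomal RNA, and at least 1 in both in 51 (49.0% against 2.27%). With the IFNg array of the other number, the clusters chosen on number 1 had medians of 0.56 and 1.2, and with no intensity floor 0.76 and 1.07. Of the chosen clusters 67 and 55 were members. With 1 array a group there is no test, and the intensity floor still used all arrays.

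**Figure D3:**
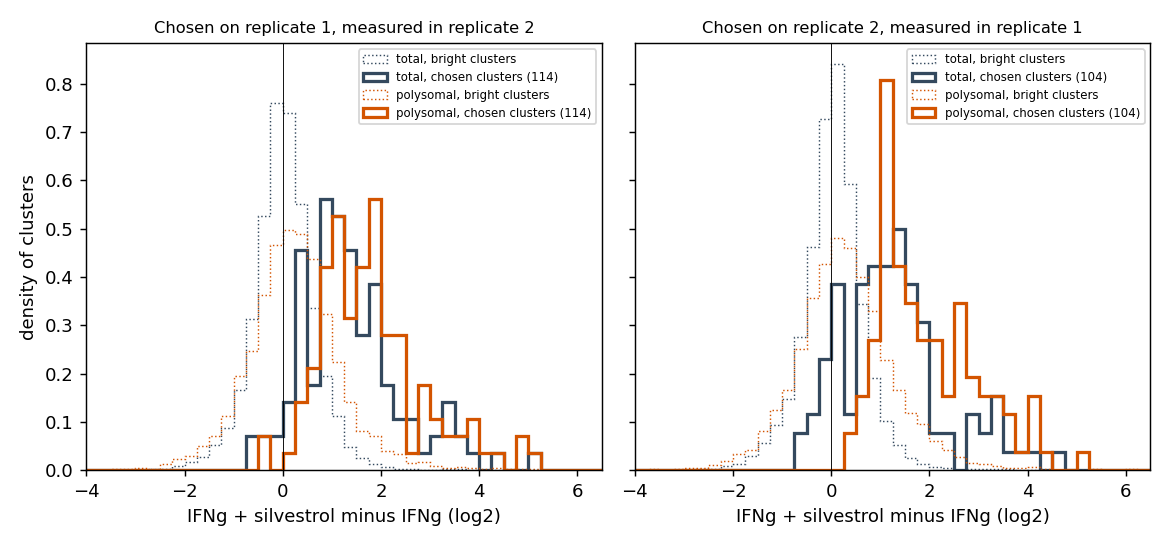
Density of clusters (vertical axis) over the silvestrol difference (horizontal axis, IFNg+silves minus IFNg, log2) in the replicate not used for the choice, for chosen clusters (solid) and all bright clusters (dotted) in total (dark blue) and polysomal RNA (orange). The chosen clusters lie to the right of the bright clusters in both panels, with medians of 1.23 and 1.64 on the left and 1.16 and 1.68 on the right.

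Members were also compared with DMSO, a description that shares the silvestrol or IFNg arrays with the choice. In total RNA the IFNg arrays stood above both DMSO arrays in 36 of 90 members (40.0%, against 17.1% of bright clusters) and below both in 6 (6.67% against 24.9%), with a median difference of 0.29 against -0.10. Without the bound the counts were 41 and 30 of 163 and the median was 0.02. IFNg with silvestrol stood above DMSO without overlap in 85 members in total RNA (24.4% of bright clusters) and 81 in polysomal RNA (20%), and in 78 in both (11%). The medians were 1.91 and 1.57. LYST, a regulator of lysosome trafficking, and CXXC5, a zinc finger protein, did so in neither fraction. LYST was at 10.93 and 9.89, 9.56 and 8.99, and 10.27 and 10.57 in total RNA, so its silvestrol arrays lay between its DMSO arrays and its IFNg arrays below both.

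**Figure D4:**
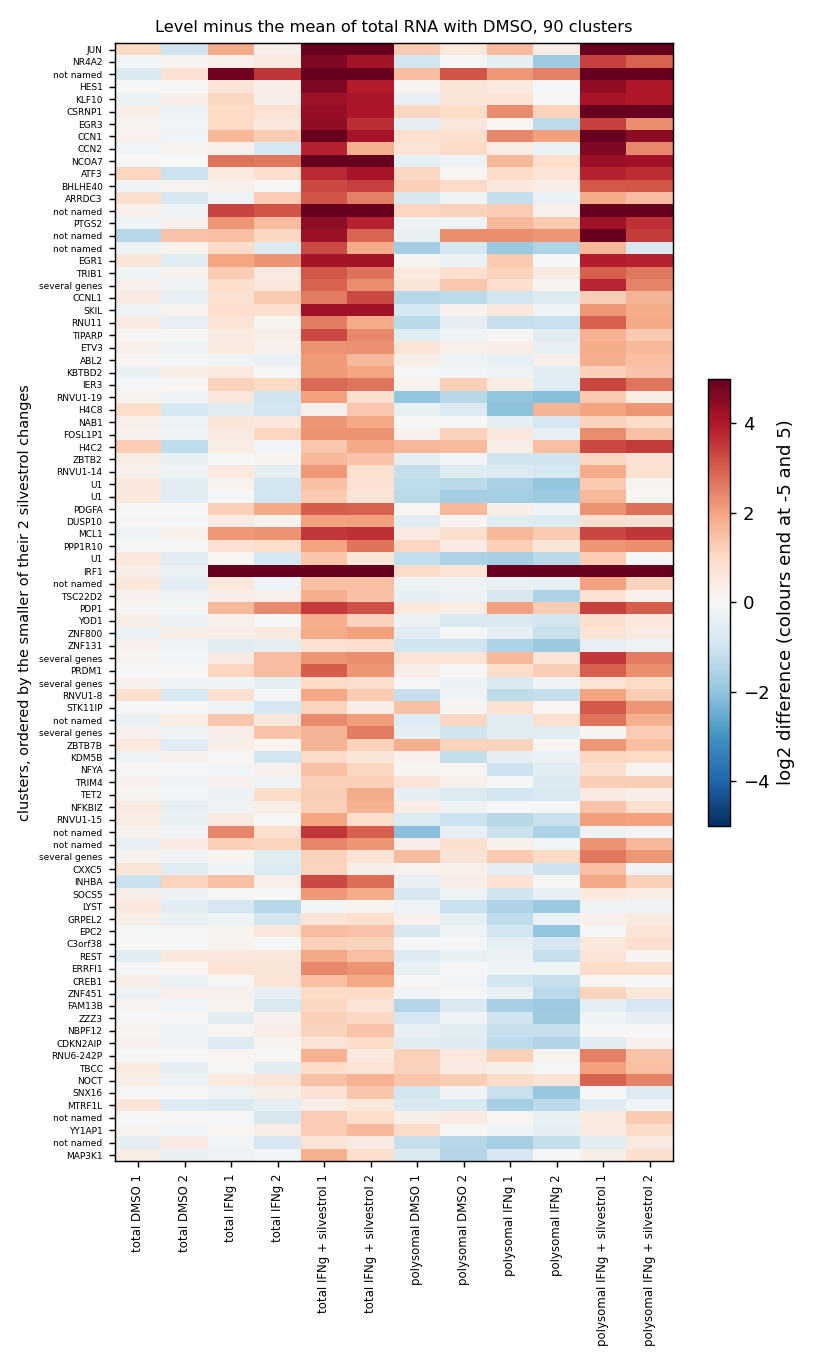
Level of the 90 members (rows, ordered by the smaller of their 2 silvestrol differences) in the 12 arrays (columns) minus the member's mean in total RNA with DMSO, on a log2 colour scale that ends at -5 and 5, with red higher. The silvestrol columns of both fractions are red nearly throughout, and IRF1 is red already in its IFNg columns.

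Polysomal against total RNA was compared in the DMSO arrays. The bound selects on the polysomal DMSO arrays. Without the bound, the choice uses the DMSO arrays only through the intensity floor, which averages all arrays. The test is therefore that of the 163 clusters that meet the rule without the bound. Of these, 1 was called higher on polysomes by limma and 0 lower, against 0.061% and 0.0565% of all clusters: TC0600011515.hg.1, not a member, which was 1.88 higher (SE 0.29, adjusted p 0.0383). At an unadjusted p under 0.05, 39 of the 163 were higher and 20 lower, 36.2% together against 24.4% of bright clusters. Their median was 0.11, against -0.02 for bright clusters. Without overlap of arrays 59 were higher (24% of bright clusters) and 39 lower (22.4%).

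With the bound, which favours low polysomal DMSO values, the balance differed. Of the 90 members 0 were called by limma, 12 were higher and 11 lower at an unadjusted p under 0.05, the median was -0.09 with a median SE of 0.37, and without overlap 25 were higher and 26 lower. The member with the lowest p, NOCT, nocturnin, was 1.31 higher (SE 0.28).

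The silvestrol difference in polysomal RNA exceeded that in total RNA in 61 of 90 members (67.8%, against 59.8% of bright clusters), with a median excess of 0.19 against 0.17. The excess ranged from -1.498 in SKIL to 2.18 in TC0500012177.hg.1, a cluster with no single gene symbol. The U1 members spanned 0.62 to 2.15, RNU11 was at 1.77 and IER3 at 1.48. Among the transcription factors the median excess was 0.12, with EGR1 at 1.21. Both differences were used by the choice, so the excess is a description. With each array centred on the bright clusters its median was 0.09.

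**Figure D5:**
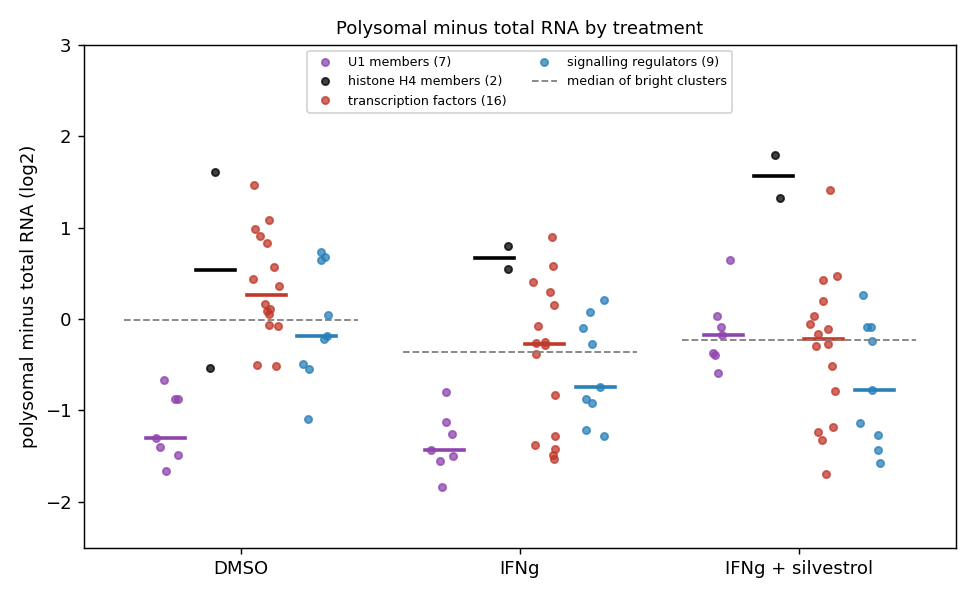
Polysomal minus total RNA (vertical axis, log2 difference of means of 2 arrays) for 4 groups of members under each treatment, where points are clusters, solid lines medians and dashed lines the median of bright clusters. The 7 U1 members lie between -1.67 and -0.67 with DMSO and between -0.59 and 0.65 with silvestrol.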

How the data were processed

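Total and polysomal RNA of A375 cells was measured on 12 Affymetrix arrays, extracted with Trizol and biotin-labelled per the labels' protocols, and grouped by sample title. The deposited table holds 1 linear intensity per cluster and array, and how these values were background-corrected and normalized is not given in the sources used here. No detection call comes with it, so a dim level is not separated from background. The members and gene lists were chosen with earlier results of these data known.

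Log2 of the deposited intensities was taken with no pseudocount. limma 3.58.1 in R 4.3.3 (lmFit, eBayes, 1 mean per group, 6 residual and 6.72 prior degrees of freedom) was fitted to all 65535 clusters, with Benjamini-Hochberg adjustment and a threshold of 0.05. Fits were checked on simulated data: for polysomal against total RNA in DMSO over 65535 clusters, calls reached 0% at a log2 change of 1, 42% at 2, 68% at 3 and 92% at 4, and 3 unchanged clusters were called. The labels do not say that replicates are separate cultures, so SEs and p-values measure only the spread between these samples, which may be technical.

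The platform annotation gave 1 symbol to 16130 clusters, several to 419 and none to 48986, and symbols were updated through RefSeq. Named are the 25 members with the largest smaller-of-two silvestrol change and members on the gene lists, and others are named by role after their values were seen. Alternatives were the floor, size and bound of the rule, normalizations, a pseudocount of 16, blocks, other fits and leaving out each array. Python 3.11.15, pandas 2.3.3 and matplotlib 3.10.9 were used.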

Additional observations from a re-analysis of the deposited data

How the results depend on the processing

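The count of 90 members became 269 with a size of 1.5-fold, 31 with a log2 size of 1.5 and 163 without the bound, and lay between 79 and 113 when 1 array was left out. Normalizations and the pseudocount gave 79 to 88 clusters, 65 to 86 of them among the 90, and 32 members met the rule under all of these 5 settings and without any 1 of the 12 arrays. By role the 32 held 8 of 16 transcription factors, 3 of 9 coregulators, 5 of 9 signalling regulators, 1 of 9 small nuclear RNAs (RNU11, and 0 of 7 U1 members) and 0 of 2 H4 genes. CCN2, EGR3, NR4A2, IRF1 and IER3, described above by array, were not among the 32. The rule includes the bound, and which condition each of them missed was not tabulated. Between arrays of the same replicate number, their silvestrol differences were all above 1 in both fractions, the lowest 1.13 for IRF1 in total RNA. The 0 calls for polysomal against total RNA in DMSO became 1 without the bound (TC0600011515.hg.1, not a member), 3 with only bright clusters in the fit (BHLHE40, NOCT and TC0600013092.hg.1), and 0 to 3 when 1 array was left out. The 3 without total IFNg replicate 1 were clusters that joined only in that choice. The median for the same comparison, -0.09, lay between -0.36 and 0.10 with 1 array left out. Deviations of same-numbered arrays from their group means correlated between groups with r from -0.19 to 0.57. The highest was between IFNg and IFNg+silves in total RNA. With 2 numbers, whether same-numbered arrays are paired cannot be told, and the held-out differences above subtract same-numbered arrays. The fit with the replicate block, and that with a random block for culture, gave 0 calls.

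With 1 array left out, the medians against DMSO were 0.05 to 0.43 for IFNg in total RNA, 1.54 to 2.05 for silvestrol in total RNA and 1.49 to 1.82 in polysomal RNA, and the polysomal excess was 0.03 to 0.28. The silvestrol minus DMSO medians of 1.91 and 1.57 became 1.09 and 0.78 with 1.5-fold, 3.36 and 2.82 with a log2 size of 1.5, and 1.31 and 0.90 without the bound, which alter the choice, and the polysomal one became 2.11 when centred on bright clusters. For clusters chosen on number 1, the held-out medians and count became 0.76, 1.07 and 236 with no intensity floor, 0.77, 1.03 and 361 with 1.5-fold, and 1.95, 2.34 and 44 with a log2 size of 1.5. With the IFNg array of the other number the medians became 0.56 and 1.20. For number 2 they became 0.68, 1.11 and 318 with 1.5-fold and 1.82, 2.71 and 34 with a log2 size of 1.5, and the count became 171 with no floor. Without the bound the counts were 177 and 231. The cause was not tested where the setting does not itself alter the choice. No other result changed by more than its spread. The 2 arrays a group limit the precision.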

Other observations

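Silvestrol arrays of replicate 1 were above those of replicate 2 in both fractions in 50 of 90 members (55.6%, against 25.4% of bright clusters), and below in both in 14 (15.6% against 35.0%). The median difference between the replicate numbers was 0.22 in total and 0.32 in polysomal RNA with silvestrol and 0.26 and 0.30 with IFNg, against -0.06 and -0.03 with silvestrol for bright clusters.

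The polysomal excess of the silvestrol difference, a description that shares arrays with the choice, was largest by role in small nuclear RNA, with a median of 1.17, and lowest in signalling regulators, with a median of -0.35. The cluster TC0600013092.hg.1 had no single gene symbol, an IFNg difference of 4.19 in total RNA and silvestrol differences of 3.97 and 4.15.

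The cluster TC0500012177.hg.1, with no single gene symbol, differed between fractions with IFNg, a description from arrays that the choice used. In total RNA it was at 9.24 and 8.74 with DMSO, 12.39 and 12.13 with IFNg, and 14.50 and 14.59 with added silvestrol. In polysomal RNA it was at 10.07 and 10.16, 10.26 and 9.26, and 14.31 and 14.13. Its IFNg arrays stood above DMSO in total RNA (3.27) and overlapped with DMSO in polysomal RNA (-0.35).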
